A study of Mus musculus with 7 samples.

Results

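The 29 genes described here carry cholesterol through its synthesis, its control and its movement, and were followed in nanopore long-read counts of cultured mouse neural stem cells (NSCs). They were chosen by name from the known pathway, each identifier in the count files being matched to its symbol through the Gencode annotation of GRCm38, and all 29 were found among the 55335 genes listed. Of these, 19 encode enzymes of synthesis, 5 encode regulators and 5 encode carriers. The series compared 4 wild-type (WT) samples with 3 *Smchd1*-null samples, all NSCs on the FVB/N strain background, and asked which genes depend on *Smchd1*, a chromatin protein that keeps the inactive X chromosome and certain imprinted and clustered genes silent. The null samples carried the MommeD1 allele of *Smchd1*, a nonsense mutation present in every cell. All cells were grown in NeuroCult medium with EGF and bFGF, and poly(A) RNA was made into direct cDNA libraries, without PCR, in 2 batches that used successive versions of the direct cDNA kit. WT replicate 2 and null replicates 1 and 2 were in batch 1, WT replicates 3 and 4 and null replicate 3 in batch 2, and WT replicate 1 was sequenced in both. The age of the source animals, and whether each sample came from its own animal, are not given in the labels, so that p-values measure only the spread between these samples.

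Cholesterol is built from acetyl-CoA in the cytosol and endoplasmic reticulum: a shared trunk leads to mevalonate and the isoprenoid diphosphates, squalene synthase commits these to sterols, and a series of demethylations, reductions and isomerisations turns lanosterol into cholesterol. When membrane sterol is low, SCAP escorts the SREBP transcription factors out of the endoplasmic reticulum, INSIG proteins no longer hold them back, and the cleaved factors raise the synthesis genes together, with NF-Y and Sp1 bound beside them. The brain makes nearly all of its own cholesterol, since plasma lipoproteins do not cross the blood-brain barrier; astrocytes export it on apolipoprotein E through ABCA1, and myelinating oligodendrocytes use more of it than other cells.

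The libraries held from 2741820 to 7736498 counts, so that 3 counts stood for 0.399 to 1.13 counts-per-million (CPM, scaled by TMM factors), and voom quality weights ran from 0.447 in WT replicate 4 to 2.03 in null replicate 1. *Smchd1* was at 66.9, 56.4, 74.7 and 55.7 CPM in WT replicates 1 to 4 and at 17.3, 12.8 and 18.4 CPM in null replicates 1 to 3, a log2 fold change of -2.15 (SE 0.18, limma adjusted p = 0.00011), as the labels state. Of 12 neural stem cell markers, *Fabp7* was at 4510 to 9460 CPM and *Vim* at 2190 to 2550 CPM. Markers of other neural lineages were also present. Their sums ran from 565 to 1480 CPM for astrocytes, 1020 to 1300 CPM for the oligodendrocyte lineage and 414 to 480 CPM for neurons. Summed over their lists, 7 microglial markers stayed at or under 2.23 CPM, 5 endothelial markers at or under 4.12 CPM and 6 fibroblast markers at or under 4.46 CPM in all 7 samples, and *C1qa*, *Tmem119* and *Lum* were at 0. Fewer cells of a type and less RNA per cell cannot be told apart in bulk samples such as these.

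No gene of the pathway passed the test between genotypes, and the estimates were bounded closely. Of the 29 genes, 28 had enough counts to be tested; 0 of the 28 reached an adjusted p under 0.25 in limma-voom with sample weights, the liberal threshold used for these libraries, against 1.08% of all 13305 genes tested. At an unadjusted p under 0.05, 3 of the 28 genes (10.7%) were lower in null samples, *Hmgcs1*, *Lss* and *Npc1*, where the background was 6.74% of all genes. None was higher in null samples at that p, where the background was 7.11%, and edgeR and DESeq2 likewise gave 0 genes at the adjusted threshold, with 2 (*Hmgcs1* and *Npc1*) lower and 0 higher at an unadjusted p under 0.05. Those tools also called few genes of any kind, with 0.0601% and 0.241% of all genes past the adjusted threshold and 3.07% and 2.71% lower at that unadjusted p. For 25 of the 28 genes the 95% interval of the log2 fold change lay inside a 2-fold difference in either direction, and for 21 it lay inside 1.5-fold. *Npc1*, *Abca1* and *Apoe* were the exceptions at 2-fold. Among all genes tested, 77.6% had an interval inside 2-fold.

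**Figure D1:**
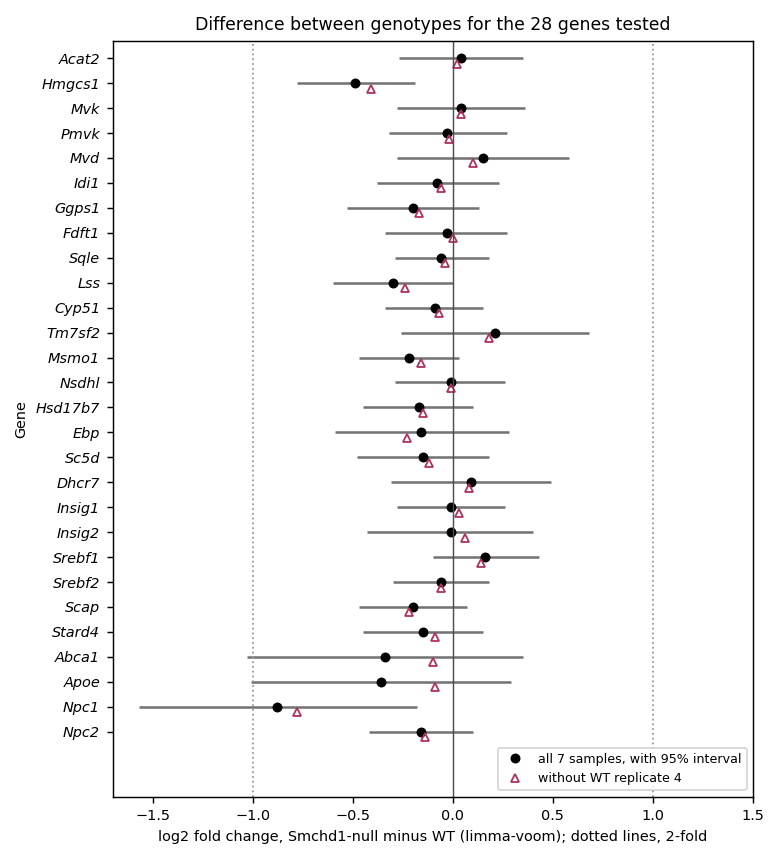
Log2 fold change of each tested gene, Smchd1-null minus WT, from limma-voom (x axis; y axis, genes in the order of the pathway). Black points and bars are the estimate and its 95% interval from all 7 samples, open triangles the estimate without WT replicate 4, and dotted lines mark a 2-fold difference. Only the intervals of Hmgcs1, Lss and Npc1 lie wholly below 0, that of Lss by less than 0.01, and none lies wholly above it.

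Most of the small differences were negative. The log2 fold change was below 0 for 22 of the 28 genes (78.6%), against 49.4% of all genes tested, with a median of -0.08 for the 28 and of 0.00 for all genes. For the 18 synthesis genes tested the median was -0.07. Longer genes tended to lower values in null samples across the whole table (Spearman rho between length and log2 fold change, -0.38 over the 13305 genes and -0.44 over the 28, genes not being independent replicates). With the length trend taken out of each library the median of the 28 was -0.09. The difference was negative inside both batches for 17 of the 28 genes (60.7%), against 27.1% of all genes, and positive in both for 2, *Idi1* and *Ebp*. All within-batch values leave out WT replicate 1, so that batch 1 rests on a single WT sample and batch 2 on a single null sample, with WT replicate 4 among its WT samples.

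In 4 of the 28 genes (14.3%) every null sample lay below every WT sample in log-CPM, where the background was 3.01% of all genes. These were *Msmo1*, *Hsd17b7*, *Scap* and *Npc1*. In none of the 28 did every null sample lie above, where the background was 2.52%. For *Msmo1*, *Hsd17b7* and *Scap* the gap was smaller than the counting SD of the nearest null sample. The nearest null value was 2.23% below the nearest WT value for *Msmo1* and 3.01% below it for *Hsd17b7*. The counting SD was 2.81% and 6.95% in those null samples, and 2.81% and 6.93% in those WT samples. For *Scap* the gap was 8.11%, with a counting SD of 9.02% in the null and 5.84% in the WT sample. For *Npc1* it was 27.3%, with 22.4% in the null and 25.8% in the WT sample. Without WT replicate 3 the number of separated genes was 8, where the share of all genes lower in null samples without overlap was 5.56%, and with the length trend removed *Scap* overlapped. With library size alone as the scaling *Msmo1* overlapped and *Npc2* separated, so that the number stayed at 4, where that share was 3.19%.

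The promoters of *Hmgcs1*, *Lss*, *Msmo1* and *Hsd17b7* are shown because these synthesis genes gave the lowest p-values or separated the genotypes, and because the factors named above bind in windows of this kind. Each is 300 bases, from 250 before to 50 after the RefSeq start, 5′ to 3′ on the strand of the gene in GRCm38.p6, with capitals marking the sterol response element letters TCACNCCAC and the NF-Y box CCAAT on either strand (its reverse complement ATTGG). The *Hmgcs1* window lies at chr13:119690101-119690400 on the + strand, that of *Lss* at chr10:76531355-76531654 (+), that of *Msmo1* at chr8:64733529-64733828 (-) and that of *Hsd17b7* at chr1:169969156-169969455 (-).
Hmgcs1: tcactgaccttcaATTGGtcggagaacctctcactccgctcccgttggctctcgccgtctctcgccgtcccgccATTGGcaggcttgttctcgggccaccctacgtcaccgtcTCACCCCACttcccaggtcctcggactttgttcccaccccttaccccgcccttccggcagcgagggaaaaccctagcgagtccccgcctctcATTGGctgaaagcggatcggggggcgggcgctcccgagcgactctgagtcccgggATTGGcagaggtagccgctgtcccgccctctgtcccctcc
Lss: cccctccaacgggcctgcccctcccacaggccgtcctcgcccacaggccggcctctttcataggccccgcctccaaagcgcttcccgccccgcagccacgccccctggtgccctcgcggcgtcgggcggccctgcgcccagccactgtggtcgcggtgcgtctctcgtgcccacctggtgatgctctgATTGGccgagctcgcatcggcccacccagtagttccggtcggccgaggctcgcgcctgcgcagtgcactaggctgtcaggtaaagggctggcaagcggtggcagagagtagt
Msmo1: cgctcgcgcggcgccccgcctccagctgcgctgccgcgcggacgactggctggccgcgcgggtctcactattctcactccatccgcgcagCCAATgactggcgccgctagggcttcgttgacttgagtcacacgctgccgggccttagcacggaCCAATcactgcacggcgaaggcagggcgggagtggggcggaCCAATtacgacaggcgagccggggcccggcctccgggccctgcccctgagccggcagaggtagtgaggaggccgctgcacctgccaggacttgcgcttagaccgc
Hsd17b7: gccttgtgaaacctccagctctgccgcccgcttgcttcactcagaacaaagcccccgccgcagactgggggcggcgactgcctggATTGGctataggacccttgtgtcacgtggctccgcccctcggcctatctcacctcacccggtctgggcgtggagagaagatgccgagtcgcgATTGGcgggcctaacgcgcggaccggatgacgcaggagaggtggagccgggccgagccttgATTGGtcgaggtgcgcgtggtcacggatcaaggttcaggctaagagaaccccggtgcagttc

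Promoters of this kind were found for 24 of the 29 genes, *Fdps*, *Fdft1*, *Sqle*, *Stard4* and *Npc1* having no entry used here. CCAAT stood on either strand in at least 1 promoter of 20 of the 24 genes (83.3%), against 44% of the 9121 genes tested that had an entry, and GGGCGG, the Sp1 box, in 21 of the 24 (87.5%) against 71.4%. TCACNCCAC was matched only in *Hmgcs1*, 137 bases before the start, and in 1.38% of the tested genes. No CCAAT was matched in the windows of *Acat2*, *Scap*, *Abca1* and *Apoe*. The reverse complement of CCAAT can share 2 letters with GGGCGG, so that these matches are not independent. A match of letters is a description and not a bound site, and genes with several starts had several chances of a match.

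The genes spanned a wide range of levels. Per kilobase of the length given in the files, averaged over the 7 samples, *Apoe* stood at 152 CPM per kb and *Hmgcs1* at 129, followed by *Acat2* at 84, *Pmvk* at 73.1 and *Insig1* at 56.7. The enzymes from squalene on lay between 9.12 (*Lss*) and 49.8 (*Nsdhl*) CPM per kb. The low end was held by *Abca1* at 1.37, *Npc1* at 0.361 and *Fdps* at 0.12 CPM per kb. The paper reasons that long-read protocols, which do not fragment transcripts, should in theory carry no length bias. On that reasoning division by length favours short genes, and the order in CPM differed. Mean CPM was 675 in WT and 482 in null samples for *Hmgcs1*, and 398 and 226 for *Apoe*. For *Npc2* the means were 261 and 225 CPM, and for *Pmvk* 131 and 118 CPM. The values of *Abca1*, *Npc1* and *Fdps* rest on totals of 490, 136 and 16 counts over all 7 samples. *Npc1* and *Rmc1* run toward each other on opposite strands and overlap at their ends. How reads there were assigned was not tested, so that the level of *Npc1* is uncertain. The same holds for *Fdps*, which shares 26.7% of its exon bases on the same strand with *Gm43738*.

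**Figure D2:**
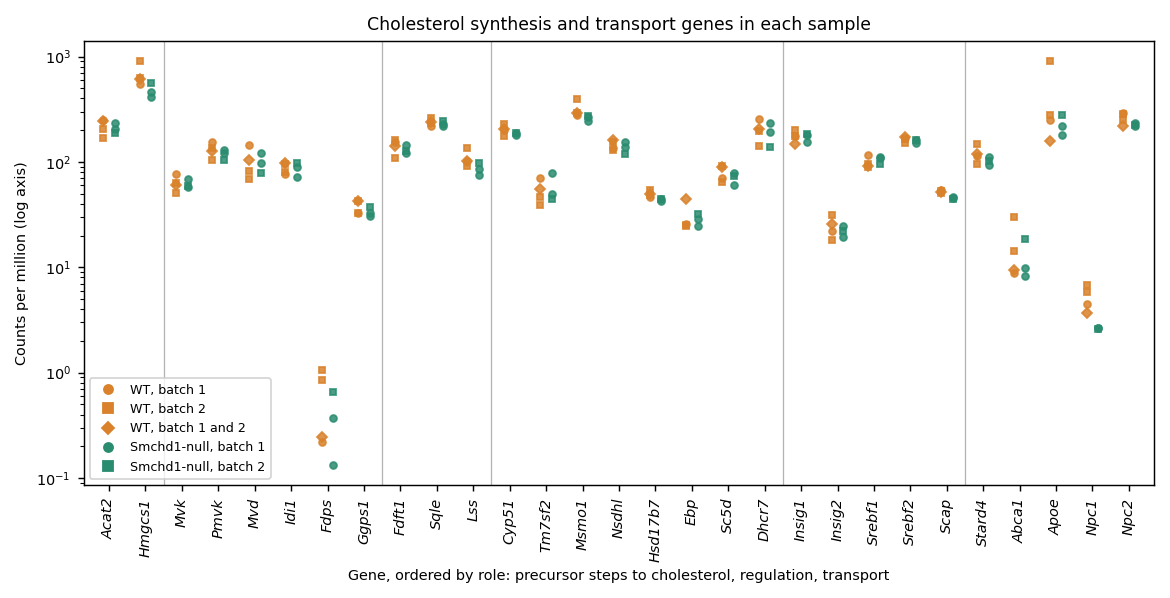
CPM on a log axis (y) of each of the 29 genes (x, in the order of the pathway, vertical lines between the 6 role groups), 1 point per sample, WT left and Smchd1-null right of each gene, with the shape giving the batch. WT and null points interleave for most genes, Apoe in WT replicate 4 stands at 908 CPM above all other Apoe values, and Fdps lies near 1 CPM or below in every sample.

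The first enzymes of the trunk gave the lowest p-value of the pathway. *Hmgcs1*, the synthase that joins acetoacetyl-CoA and acetyl-CoA into HMG-CoA (chr13:119690379-119708260), was at 611, 553, 632 and 904 CPM in WT replicates 1 to 4 and at 463, 417 and 565 CPM in null replicates 1 to 3. WT replicate 4 was the highest sample and null replicate 2 the lowest, and the genotypes overlapped only through null replicate 3, which exceeded WT replicate 2. The log2 fold change was -0.49 (SE 0.14, 95% interval -0.78 to -0.19, adjusted p = 0.267), or 0.714 times the WT level. Within batches it was -0.33 in batch 1 and -0.42 in batch 2. Across the 19 alternative fits it ran from -0.57 to -0.29 and its adjusted p from 0.0525 to 1, and it passed the adjusted threshold in 4 of them, among these without null replicate 3 (adjusted p = 0.0525) and without WT replicate 2 (adjusted p = 0.08). In those 2 fits 23.5% and 22.7% of all genes passed too. *Acat2*, the cytosolic thiolase that makes acetoacetyl-CoA and has a near copy in *Acat3*, had 169 to 248 CPM in WT and 188 to 233 CPM in null samples, with a log2 fold change of 0.04 (95% interval -0.27 to 0.35), or -0.11 with the batch as a covariate.

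The 5 tested genes between mevalonate and the isoprenoid diphosphates lay close to 0, with log2 fold changes from -0.20 to 0.15 and every interval inside 1.5-fold. *Pmvk*, the phosphomevalonate kinase and the most abundant of them per length, was at 126, 156, 104 and 136 CPM in WT and at 129, 121 and 105 CPM in null samples. The genotypes overlapped fully, and WT samples held both the highest and the lowest value. Its log2 fold change was -0.03 (95% interval -0.32 to 0.27), and -0.23 with the batch as a covariate (adjusted p = 0.603). *Mvk*, the kinase before it, gave 0.04 (95% interval -0.28 to 0.36) and *Mvd*, the decarboxylase that forms isopentenyl diphosphate, 0.15 (95% interval -0.28 to 0.58), and both turned negative with the batch as a covariate (-0.12 and -0.24). *Idi1*, the isomerase that makes dimethylallyl diphosphate, gave -0.08 (95% interval -0.38 to 0.23) and *Ggps1*, which makes geranylgeranyl diphosphate for protein prenylation, -0.20 (95% interval -0.53 to 0.13). *Fdps*, the farnesyl diphosphate synthase that feeds squalene synthesis, could not be tested: it had 16 counts in all, 1, 1, 4 and 5 in WT and 1, 1 and 3 in null samples. In the annotation, 1124 of its 4208 exon bases (26.7%) are shared on the same strand with *Gm43738*, which had 2 counts. How reads that overlap both genes were assigned was not tested, and its values are uncertain.

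The enzymes that form squalene and close it into lanosterol showed a single low p. *Lss*, lanosterol synthase (chr10:76531588-76557138), was at 101, 103, 91.8 and 135 CPM in WT and at 74.7, 86 and 96.8 CPM in null samples. WT replicate 4 was the highest, null replicate 1 the lowest, and the genotypes overlapped only where null replicate 3 exceeded WT replicate 3. Its log2 fold change was -0.30 (SE 0.14, 95% interval -0.60 to -0.00, adjusted p = 0.36), and without WT replicate 4 it was -0.24 (adjusted p = 0.5). With the length trend removed it was -0.16 (adjusted p = 0.703), *Lss* being among the longest of the genes at 10787 bases. *Sqle*, the monooxygenase that starts ring closure and the most abundant of the 3 per length, was at 241, 220, 232 and 263 CPM in WT and at 229, 220 and 243 CPM in null samples. The groups covered nearly the same range, and the log2 fold change was -0.06 (95% interval -0.29 to 0.18). *Fdft1*, squalene synthase, gave -0.03 (95% interval -0.34 to 0.27); 18.3% of its exon bases lie opposite *Ctsb*, which had 6377 counts to its 4533, and the counting is not stated to use strand.

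Among the 8 enzymes from lanosterol to cholesterol, none had an unadjusted p under 0.05, and every interval lay inside 2-fold. *Msmo1*, the oxidase that removes the methyl groups at carbon 4 (chr8:64718139-64733792), was at 292, 280, 291 and 394 CPM in WT and at 265, 247 and 274 CPM in null samples. All null values were below all WT values, with WT replicate 4 far above the rest. The log2 fold change was -0.22 (SE 0.12, 95% interval -0.47 to 0.03, adjusted p = 0.409), and -0.16 without WT replicate 4. *Hsd17b7*, the ketosteroid reductase of the same step (chr1:169949535-169969241), was at 49.3, 46.2, 48.8 and 54.2 CPM in WT and at 42.4, 44.2 and 44.8 CPM in null samples, again without overlap. The estimate, -0.17 on the log2 scale (SE 0.13), had an adjusted p of 0.541. The gap between the genotypes was smaller than either counting SD given above.

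*Nsdhl* and *Ebp* are the enzymes of this stretch on the X chromosome, and *Smchd1* acts on the inactive X. Every sample gave *Xist* at 0.524 CPM or less and the Y-linked *Ddx3y* at 37.9 to 58.9 CPM. These are values of male cells, which have no inactive X, so that neither enzyme gene can report on its silencing here. *Nsdhl*, the decarboxylating dehydrogenase that completes demethylation at carbon 4, was at 163, 135, 130 and 154 CPM in WT and at 155, 139 and 119 CPM in null samples. The groups overlapped, and the log2 fold change was -0.01 (95% interval -0.29 to 0.26). *Ebp*, the sterol isomerase, was at 44.7, 26, 25.4 and 24.4 CPM in WT and at 28.5, 24.8 and 32.3 CPM in null samples. WT replicate 1 was the highest and the other WT samples lay within the null range or just below it, and the log2 fold change was -0.16 (95% interval -0.59 to 0.28). The other 4 enzymes of this stretch overlapped between genotypes: *Cyp51*, which removes the methyl group at carbon 14, gave -0.09 (95% interval -0.34 to 0.15), *Sc5d*, the desaturase, -0.15 (95% interval -0.48 to 0.18), *Dhcr7*, which makes cholesterol from its last precursor, 0.09 (95% interval -0.31 to 0.49) and *Tm7sf2*, a reductase at carbon 14, 0.21 (95% interval -0.26 to 0.68). With the batch as a covariate *Dhcr7* and *Tm7sf2* turned to -0.25 and -0.11. *Tm7sf2* shares 532 exon bases on the same strand with *Vps51*.

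The 5 regulators gave no call, and each of their intervals lay inside 1.5-fold. *Srebf2*, the SREBP that drives synthesis, was at 174, 168, 150 and 166 CPM in WT and at 160, 151 and 161 CPM in null samples. The highest value was only 1.16 times the lowest, and the log2 fold change was -0.06 (95% interval -0.30 to 0.18). *Srebf1*, whose products act mainly on fatty acid genes, was at 91.3, 117, 94.9 and 89.2 CPM in WT and at 109, 112 and 96.1 CPM in null samples. The groups overlapped, and the log2 fold change was 0.16 (95% interval -0.10 to 0.43), the single regulator estimate above 0. *Insig1*, itself a target of the SREBPs and the retention factor for SCAP, was at 149, 177, 178 and 202 CPM in WT and at 155, 181 and 184 CPM in null samples, giving -0.01 (95% interval -0.28 to 0.26), and its relative *Insig2* gave -0.01 (95% interval -0.43 to 0.40). *Scap*, the escort protein, was at 51.5, 54.4, 53.5 and 50.2 CPM in WT and at 46.2, 45.8 and 44.2 CPM in null samples. No value was shared between genotypes, in either batch, although the log2 fold change was only -0.20 (SE 0.13, 95% interval -0.47 to 0.07, adjusted p = 0.455). Within batches it was -0.24 in batch 1 and -0.23 in batch 2, and with the batch as a covariate its adjusted p was 0.621.

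The 3 widest intervals of the pathway were those of the carriers *Npc1*, *Apoe* and *Abca1*, while those of *Npc2* and *Stard4* lay inside 1.5-fold. The log2 fold changes of the 5 carriers were all below 0, with a median of -0.34, but the median was -0.12 with the length trend removed and -0.24 with the batch as a covariate, where *Abca1* was above 0. *Npc1*, the membrane protein that takes cholesterol out of lysosomes, was at 3.66, 4.44, 5.77 and 6.86 CPM in WT (15, 20, 22 and 40 counts) and at 2.63, 2.66 and 2.6 CPM in null samples (7, 20 and 12 counts). All null values were below all WT values and nearly identical to each other. The log2 fold change was -0.88 (SE 0.32, 95% interval -1.57 to -0.18, adjusted p = 0.302), and it was -0.67 in batch 1 and -1.15 in batch 2. Few reads support it, and 511 of its exon bases lie opposite *Rmc1*, which had 126 counts. How reads over these bases were assigned was not tested. *Npc2*, the soluble partner that hands cholesterol to NPC1, was at 218 to 289 CPM in WT and 217 to 233 CPM in null samples, with a log2 fold change of -0.16 (95% interval -0.42 to 0.10). *Stard4*, a cytosolic sterol carrier, gave -0.15 (95% interval -0.45 to 0.15).

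*Apoe* and *Abca1*, the export pair, were set apart by a single WT sample. *Apoe* (chr7:19696109-19699188) was at 158, 249, 278 and 908 CPM in WT and at 179, 221 and 279 CPM in null samples. Leaving WT replicate 4 aside, WT and null samples covered the same range. The log2 fold change was -0.36 (SE 0.30, 95% interval -1.01 to 0.29, adjusted p = 0.589) with all samples and -0.09 (adjusted p = 0.881) without WT replicate 4, and edgeR, which gave the samples equal weight, put it at -0.82 (adjusted p = 0.858). *Abca1*, the transporter that loads cholesterol onto apolipoproteins, was at 9.52, 8.88, 14.2 and 30 CPM in WT and at 8.26, 9.85 and 18.6 CPM in null samples. Again WT replicate 4 was the highest, with the next value in a null sample, and the log2 fold change moved from -0.34 (95% interval -1.03 to 0.35) to -0.10 without it. Its direction was not stable: it was 0.09 with the batch as a covariate and 0.03 without null replicate 2, and was 0.02 within batch 1 and -0.15 within batch 2.

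WT replicate 4 was high for much of the pathway and for astrocyte markers, and less uniformly for oligodendrocyte, neuron and neural stem cell markers. In it 23 of the 28 tested genes (82.1%) were above their own mean over the 7 samples, against 51.1% of all genes, with a median deviation of 0.21 on the log2 scale. Relative to the mean of the other WT samples *Apoe* was 3.97 times as high, *Abca1* 2.76 times, *Hmgcs1* 1.51 times and *Msmo1* 1.37 times. In the same sample *Mbp*, a myelin gene of oligodendrocytes, was at 96.2 CPM, where the other WT samples had 0.262 to 4.44 CPM and the null samples 1.13 to 2.6 CPM. *S100b* and *Slc1a2*, astrocyte genes, were at 65 and 65.8 CPM, against at most 11.5 and 22.1 CPM in any other sample. Summed over the 8 astrocyte markers, WT replicate 4 had 1480 CPM, the other WT samples up to 910 and the null samples 565 to 816 CPM. All 7 astrocyte markers tested were above their mean there. Over 9 oligodendrocyte markers it had 1300 CPM, the other WT samples up to 1090 and the null samples 1020 to 1050 CPM. Of the 7 oligodendrocyte markers tested, 5 were above their mean, against 4 in WT replicates 1 and 2 and null replicate 3. Their median deviation was 0.96 on the log2 scale, with the next value, 0.34, in WT replicate 2. Neuron and neural stem cell markers were not uniform there either. The 8 neuron markers tested had a median deviation of 0.53 on the log2 scale, against -0.11 to 0.07 in the other samples. Summed over their list, neuron markers reached only 480 CPM, against 471 CPM in WT replicate 1. Of the 8 tested, 5 were above their mean, as in WT replicate 3 and null replicate 1. The 12 neural stem cell markers summed to 13820 CPM, against at most 10860 CPM in any other sample. Of these, 7 were above their mean, as in WT replicate 2. WT replicate 4 also had the highest mitochondrial share of counts, at 3.95% against 2.42% to 3.24% in the rest. The part of these values in the sterol results was not tested.

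**Figure D3:**
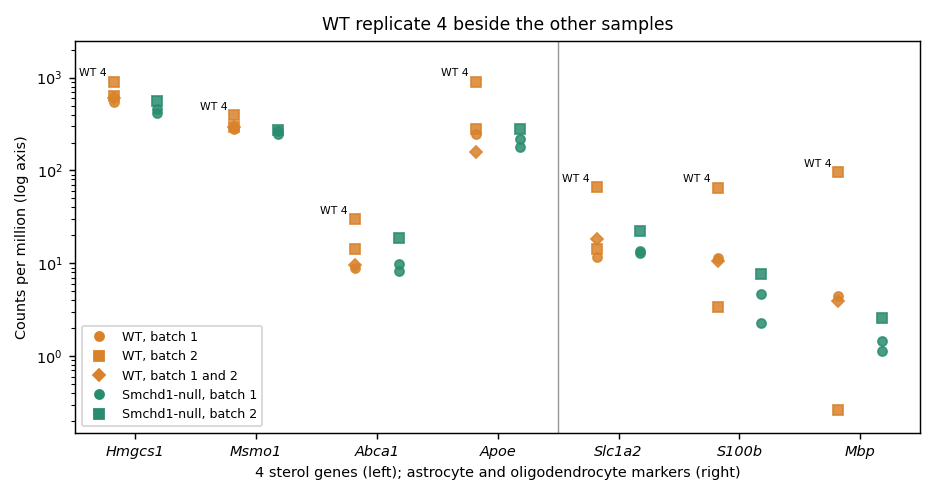
CPM on a log axis (y) of 4 sterol genes and 3 glial markers (x), 1 point per sample, WT left and Smchd1-null right, with the shape giving the batch. WT replicate 4 is the highest sample for all 7 genes, at 908 CPM for Apoe and 96.2 CPM for Mbp.

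Without WT replicate 4, *Hmgcs1* kept a log2 fold change of -0.41 (adjusted p = 0.389) and *Npc1* of -0.78 (adjusted p = 0.463), and *Msmo1*, *Hsd17b7*, *Scap* and *Npc1* still separated the genotypes. At the other end, only 4 of the 28 genes (14.3%) were above their mean in null replicate 2, against 51.6% of all genes. The counts were 7 (25%) in null replicate 3, 9 (32.1%) in WT replicate 3 and 12 (42.9%) in null replicate 1. They were 16 (57.1%) and 21 (75%) in WT replicates 2 and 1. For the median deviation of the synthesis genes, WT samples held both ends. It was 0.15 in WT replicate 4 and -0.15 in WT replicate 3, with -0.10 to 0.05 in the null samples.

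The batches also divided some of the genes. Setting aside WT replicate 1, 4 of the 28 genes (14.3%) were higher in every batch 1 sample than in every batch 2 sample, *Acat2*, *Mvd*, *Tm7sf2* and *Srebf1*, against 17.3% of all genes. *Mvd* was at 145, 121 and 96.8 CPM in WT replicate 2 and null replicates 1 and 2, and at 68.4, 81.8 and 77.9 CPM in WT replicates 3 and 4 and null replicate 3. The other way, 5 genes (17.9%) were higher in every batch 2 sample, *Hmgcs1*, *Ggps1*, *Sqle*, *Abca1* and *Apoe*, against 15.3% of all genes. These shares were near the background. In the batch covariate WT replicate 1 was entered with a batch 2 share of 0.5, a value that was set and not measured. With the batch 2 share as a covariate, 6 of the 28 genes had an unadjusted p under 0.05, all lower in null samples (*Hmgcs1*, *Pmvk*, *Dhcr7*, *Scap*, *Npc1* and *Npc2*), where the share of all genes was 4.12%, and 0 passed the adjusted threshold. *Dhcr7* was at 207, 258, 143 and 197 CPM in WT and at 235, 191 and 139 CPM in null samples. Of the 6 genes with an estimate above 0 in the main comparison, 5 turned negative with that covariate: *Acat2* from 0.04 to -0.11, *Mvk* from 0.04 to -0.12, *Mvd* from 0.15 to -0.24, *Tm7sf2* from 0.21 to -0.11 and *Dhcr7* from 0.09 to -0.25, while *Srebf1* went from 0.16 to 0.00. For *Dhcr7* the difference was -0.28 within each batch, with an adjusted p of 0.602 under the covariate.

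**Figure D4:**
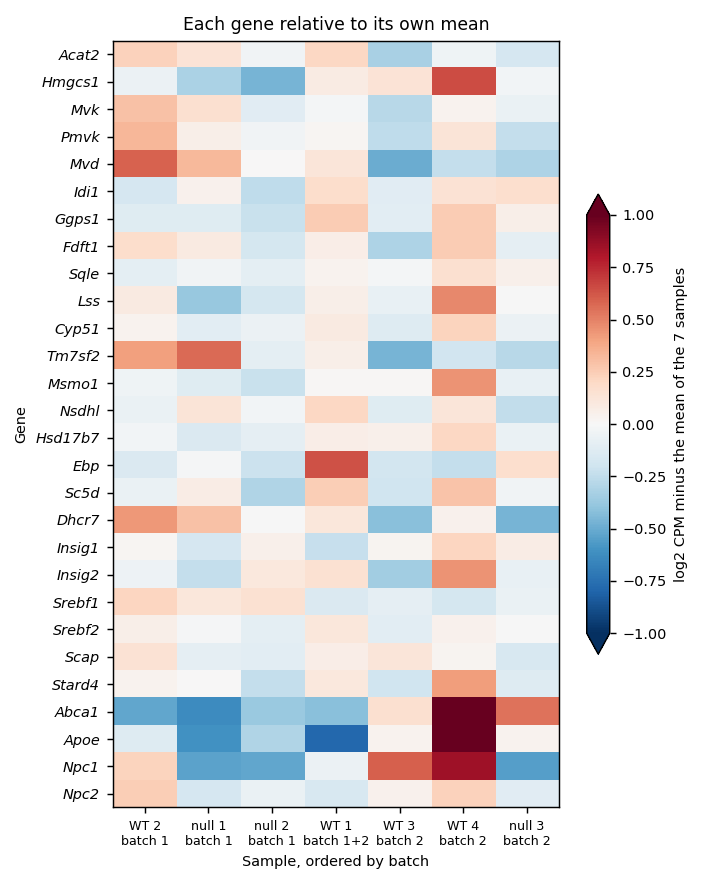
Log2 CPM of the 28 tested genes (y, in the order of the pathway) minus the mean of each gene over the 7 samples (colour, red above and blue below, saturated at 1 in either direction), with samples ordered by batch (x). Most cells are pale; the column of WT replicate 4 is red for 23 of the 28 genes in log-CPM, most strongly Apoe and Abca1, and Mvd and Tm7sf2 differ by batch.

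The genes around the pathway gave no call either. Of 80 genes in 5 neighbouring lists, 70 were tested and 0 reached an adjusted p under 0.25, with 5 lower and 2 higher in null samples at an unadjusted p under 0.05. Over all genes those shares were 1.08%, 6.74% and 7.11%, so that the neighbouring genes were near or below the background. Fatty acid synthesis, which shares SREBP control, held 3 of the 5: *Scd1*, the stearoyl-CoA desaturase, was at 258, 188, 217 and 335 CPM in WT and at 157, 170 and 226 CPM in null samples. The groups overlapped through null replicate 3, with an estimate of -0.45 on the log2 scale (SE 0.16, adjusted p = 0.294). *Acly*, which makes cytosolic acetyl-CoA for both pathways, gave -0.29 (adjusted p = 0.339) and the elongase *Elovl5* -0.27 (adjusted p = 0.338). The log2 fold change was below 0 for 12 of the 14 tested genes of that list, against 49.4% of all genes. Their median was -0.18, and 13 of the 14 were above their mean in WT replicate 4. A negative tilt was thus not particular to the sterol genes.

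In the list of sterol sensing and SREBP control, 17 of 18 genes were tested and *Rxrb*, a partner of the sterol-sensing LXR receptors, was higher at an unadjusted p under 0.05 (log2 fold change 0.38, adjusted p = 0.359). Of 19 tested genes of uptake, storage and movement, *Nceh1*, a cholesteryl ester hydrolase, gave -0.55 (adjusted p = 0.328) and *Gramd1b*, a carrier of plasma membrane cholesterol, 1.39 (adjusted p = 0.333) at only 0.488 to 9.01 CPM. Among the 13 isoprenoid branch genes, *Icmt*, which methylates prenylated proteins, gave -1.14 (adjusted p = 0.346) at 1.06 to 6.29 CPM. None of the 7 tested genes among 12 further sterol enzymes had an unadjusted p under 0.05. The medians of these lists were 0.01 for sensing, 0.03 for uptake, -0.04 for isoprenoid branches and -0.07 for further enzymes, beside 0.00 for all genes.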

How the data were processed

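Per the labels and methods, the authors aligned direct cDNA nanopore reads to GRCm38 with minimap2 (version 2.17) and counted primary alignments per Gencode gene with featureCounts in long-read mode. The deposited files hold whole-number counts per gene and the gene length, a number of exon bases that the authors' counter wrote beside them. A setting for strand is not given in the sources used here. Samples were grouped by the genotype label. Here, genes were filtered by filterByExpr, counts were scaled by TMM (edgeR 4.0.16) and tested with voomWithQualityWeights in limma 3.58.1 (R 4.3.3), Benjamini-Hochberg adjusted over all 13305 genes, at thresholds of 0.25 and 0.05. Log-CPM used a prior count of 2. The alternatives tried were DESeq2 1.42.0, the quasi-likelihood test of edgeR, equal sample weights, other scaling, other filters, batch, a replicate block, a lowess length trend (span 0.3) and each sample left out. Lists of 29 members, 80 neighbouring genes and cell markers were chosen with earlier results of these data known. Values per sample are given for members with an unadjusted p under 0.05, members whose genotypes did not overlap, the most abundant per length of each of the 6 role groups, and *Srebf1*, *Srebf2*, *Insig1*, *Apoe*, *Abca1*, *Nsdhl* and *Ebp*. Of the neighbouring lists, up to 3 genes per list with the lowest unadjusted p under 0.05 are named. *Npc2*, *Dhcr7*, *Mvd* and *Acat2* were added for a result of batch or abundance after their values were seen. Fits were also run on simulated counts with fold changes of a single size and no batch effect or length trend. That run does not show how the fits handle batch, length or smaller changes. Gene symbols came from Gencode M21, of the same build as the M23 release used by the authors, and 55154 of 55335 identifiers matched with the version ignored. Promoters came from RefSeq (GRCm38.p6). A marker that was listed is not reported here.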

Additional observations from a re-analysis of the deposited data

Results flagged for a closer look

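In 28 of the genes and *Smchd1*, the 4 WT samples were searched for a sample far from the other 3, and 2 genes had such a sample; chance alone flags about 1 in 20 groups. *Msmo1*, the oxidase at carbon 4, was at 8.62 log2 CPM in WT replicate 4, where the nearest WT sample was at 8.19 and the farthest at 8.13. *Ebp*, the sterol isomerase, was at 5.50 log2 CPM in WT replicate 1, where the nearest WT sample was at 4.72 and the farthest at 4.63. *Apoe*, although 3.97 times as high in WT replicate 4 as in the mean of the other WT samples, was not picked out in this way, since the other 3 WT samples were themselves spread from 158 to 278 CPM.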

How the results depend on the processing

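Over 19 alternative fits, the number of members past an adjusted p of 0.25, 0 in the main comparison, was 1 with library size alone as the scaling and 1 with at least 10 counts in every sample (*Hmgcs1* in both), and ran from 0 to 3 when each sample was left out: 2 without WT replicate 2 and 3 without null replicate 3, where 22.7% and 23.5% of all genes passed, against 0.00733% without null replicate 1. The number lower at an unadjusted p under 0.05, 3 in the main comparison, was 6 with the batch covariate, 1 with at least 10 counts in every sample, 1 with the length trend removed together with the replicate block, and 0 to 3 with a sample left out, 0 being without null replicate 2. No fit gave a member higher at that p. The number of members without overlap, 4, ran from 4 to 8 with a sample left out, 8 being without WT replicate 3, while the share of all genes lower without overlap ran from 4.16% to 10.6% in those fits against 3.01% with all samples. In 1 of those fits, without WT replicate 2, the number counted 5 lower and 1 higher (*Srebf1*). The median of the synthesis genes stayed below 0 in every fit, from -0.18 to -0.02. *Smchd1* stayed between -2.25 and -1.86. Of the members' estimates, none of which passed the threshold in the main comparison, 15 of 28 changed sign in some fit (*Abca1*, *Acat2*, *Dhcr7*, *Ebp*, *Fdft1*, *Idi1*, *Insig1*, *Insig2*, *Mvd*, *Mvk*, *Nsdhl*, *Pmvk*, *Sqle*, *Srebf2* and *Tm7sf2*) and 13 kept it, and *Hmgcs1*, *Lss* and *Npc1* were those that passed in some fit.

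The replicate numbers in the labels name samples only, and same-numbered samples did not all deviate together (correlations of -0.04, 0.36 and 0.09). With the replicate block, 0 members passed the adjusted threshold and 2 were lower at an unadjusted p under 0.05, with a median of -0.09 over the synthesis genes. At these depths *Fdps* could not be tested, and the intervals of *Npc1*, *Abca1* and *Apoe* reach past 2-fold.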
